A study of Mus musculus with 6 samples.

Results

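The genes described here make, sense or use small carboxylic acids, namely itaconate, butyrate and the ketone bodies. They are 8 genes (*Acod1*, *Hcar2*, *Slc16a1*, *Slc16a7*, *Bsg*, *Bdh1*, *Oxct1* and *Acat1*) of 31053 genes in a bulk RNA sequencing count table. They were chosen by name, with earlier results of these data known. The 2 wild-type (WT) and 3 KIKO libraries came from mouse cerebellum. KIKO (knock-in/knock-out) mice are a model of Friedreich's ataxia that carries one knock-in and one knock-out allele in every cell of the body, and the WT mice were C57BL/6 littermates. No treatment is given for these libraries. The study describes magnetic sorting of CD45+/CD11b+ cells for its bulk sequencing, whereas the labels name the whole tissue, and they give neither age nor sex. The labels do not say which of the study's experiments the libraries belong to. The WT sample numbered 3 and 2 columns named for KIKO with butyrate, which match no labelled sample, were not analysed here.

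Itaconate is made in the mitochondria of activated macrophages and microglia by the enzyme that *Acod1* (also called Irg1) encodes, from an intermediate of the Krebs cycle. It inhibits succinate dehydrogenase and releases the antioxidant factor NRF2 from KEAP1. Butyrate, which gut bacteria produce, and the ketone body beta-hydroxybutyrate are both ligands of HCAR2, a receptor coupled to inhibitory G proteins. Monocarboxylates such as lactate, ketone bodies and butyrate cross membranes through the carriers MCT1 (*Slc16a1*) and MCT2 (*Slc16a7*), and the glycoprotein basigin (*Bsg*) brings MCT1 to the cell surface. Inside mitochondria, BDH1 oxidises beta-hydroxybutyrate to acetoacetate, OXCT1 attaches coenzyme A to it and ACAT1 splits the product into acetyl-CoA for the Krebs cycle.

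Of the 8 genes, 4 had a promoter sequence in the RefSeq table used, and the sequences of *Acod1* and *Slc16a1* are shown, since these genes represent the inducible and the transport side of the group. Each runs from 250 to 11 bases before the RefSeq transcription start on the plus strand of GRCm38.p6, at chr14:103046762-103047001 for *Acod1* and chr3:104638414-104638653 for *Slc16a1*. Capitals mark a TATA box (TATAAA) in *Acod1* and an E-box (CACGTG) followed by a GC box (GGGCGG) in *Slc16a1*.
Acod1: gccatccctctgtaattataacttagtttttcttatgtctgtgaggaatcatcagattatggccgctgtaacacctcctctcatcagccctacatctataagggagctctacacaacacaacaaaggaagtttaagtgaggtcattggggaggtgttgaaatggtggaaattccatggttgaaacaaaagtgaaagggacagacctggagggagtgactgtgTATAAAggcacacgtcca
Slc16a1: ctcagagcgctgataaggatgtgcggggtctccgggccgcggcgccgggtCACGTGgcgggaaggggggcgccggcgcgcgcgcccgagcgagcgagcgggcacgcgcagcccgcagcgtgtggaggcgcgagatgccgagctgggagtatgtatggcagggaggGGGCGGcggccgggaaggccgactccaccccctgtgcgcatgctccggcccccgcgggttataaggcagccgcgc
Both strands were searched. The TATA box of *Acod1* began 28 bases before the RefSeq start, and 12.1% of the 32851 promoter windows of this length held the same letters. In the GENCODE annotation used for gene positions, *Acod1* begins at 103046977, within this window. By that start the box lies inside the gene. The E-box of *Slc16a1* began 200 bases before the start and the GC box 85 bases before it, motifs held by 5.69% and 31.3% of the windows. The core of the antioxidant response element that NRF2 binds (TGACNNNGC) was matched once in *Slc16a1*, where it overlaps the E-box, and in 9.67% of the windows. Neither window held the AP-1 letters TGANTCA. The GC content was 43.8% for *Acod1* and 75.8% for *Slc16a1*, compared with a median of 52.1% over the windows.

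Sequencing depth was 1044760 and 1351339 counts for WT replicates 1 and 2, and 1281661, 1241997 and 1013107 counts for KIKO replicates 1, 2 and 3. Levels are given as normalized CPM, that is counts divided by library sizes that TMM made comparable, and 3 counts corresponded to between 2.28 and 3.04 normalized CPM, a floor that covers counting error only. KIKO replicate 2 stood apart from the other libraries. Across the 10889 genes tested, Pearson's r between its log2 levels and those of another library was 0.656 to 0.731, compared with 0.877 to 0.925 among the others, as a description across genes of the same libraries. It lay at least 1 log2 unit from the mean of the other 4 libraries for 42.8% of the tested genes, it had the fewest genes detected (12724, compared with 13729 to 14737) and the largest share of mitochondrially encoded counts (8.77%, compared with 3.8% to 7.63%). The log2 fold changes of the 8 genes, and those of other genes and lists that moved most, are given with and without it. In these bulk samples, fewer cells of a type and less RNA per cell cannot be told apart.

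All 8 genes passed the filter on low counts, and none differed between the genotypes at the thresholds used here, an unadjusted p under 0.05 and a log2 fold change beyond 0.75 in either direction. The study names these limits without saying whether its p was adjusted. With edgeR's quasi-likelihood test, 1.2% of all tested genes passed these thresholds, 0.716% with higher and 0.487% with lower values in KIKO mice. An adjusted p under 0.05 (Benjamini-Hochberg) was reached by 0 of the 8 genes and by 0% of all genes, and 0 of the 8 had an unadjusted p under 0.05. DESeq2's Wald test and limma with trend also called 0 of the 8, where 1.25% and 1.16% of all genes passed. Some other fits called 1 of the 8. It was *Slc16a7* without KIKO replicate 2 and with sample quality weights in limma voom, where 6.45% and 4.77% of all tested genes passed. With the replicate number as a block it was *Bsg*, where 2.49% passed. In 5 of the 8 genes the values of the genotypes were separate. *Hcar2* and *Slc16a1* had higher and *Slc16a7*, *Bsg* and *Bdh1* lower values in all 3 KIKO libraries. Of all tested genes, 16.7% showed no overlap (8.2% higher and 8.51% lower in KIKO mice). Since the 8 genes were chosen with earlier results of these data known, no excess over that share can be read from their count. The median log2 fold change of the 8 genes was 0.05, beside 0.02 over all tested genes. For a single gene, 0.1 is the smallest p that exact permutation of 2 against 3 libraries allows. Nothing in the labels says how the libraries of a genotype were separated, so the p-values measure the spread between these libraries only.

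**Figure D1:**
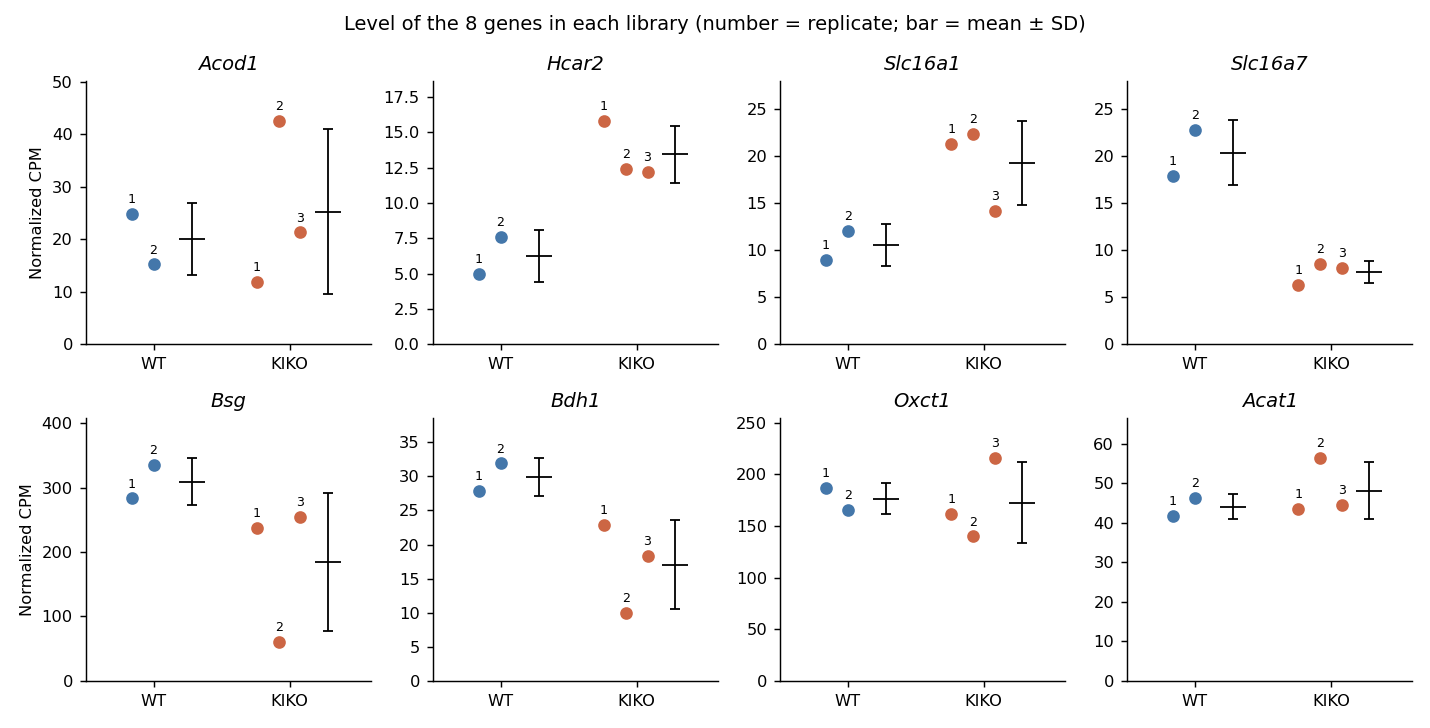
Normalized CPM (y axis, linear from 0, one scale per gene) of each of the 8 genes in the 2 WT and 3 KIKO libraries, with each point labelled by its replicate number and the mean ± SD beside the points. The groups are separate in *Hcar2*, *Slc16a1*, *Slc16a7*, *Bsg* and *Bdh1*, and KIKO replicate 2 is the highest library for *Acod1* (42.5) and the lowest for *Bsg* (61.0).

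*Acod1* (chromosome 14, 103046977 to 103056573, plus strand, from the first to the last base of the gene in GRCm38, as for all genes here), the itaconate-producing enzyme, was detected in every library and did not separate the genotypes. It had 25 and 20 counts in the WT libraries and 15, 55 and 21 in the KIKO libraries. These correspond to 24.9 and 15.2 normalized CPM in WT and to 11.8, 42.5 and 21.3 in KIKO mice. The highest and the lowest library were both KIKO, so the groups overlapped. The mean was 20 ± 6.88 (SD, n = 2) for WT and 25.2 ± 15.7 (SD, n = 3) for KIKO mice. In edgeR's test the log2 fold change was 0.34 (standard error 0.66, 95% interval −1.17 to 1.85, adjusted p = 1). When KIKO replicate 2 was left out it was −0.28 (95% interval −1.43 to 0.86), and it was 0 without WT replicate 2, so the sign of the difference was not stable. In KIKO replicate 2, *Acod1* was 1.27 log2 units above the mean log2 level of the other 4 libraries. The same library had the highest values of *Il1b* and *Cxcl2*, cytokine genes of activated microglia. *Il1b* had 471 normalized CPM there, compared with 119 to 241 in the others, and *Cxcl2* had 1490, compared with 196 to 592. Other inflammatory genes known to be induced with *Acod1* did not peak in it. *Tnf* (100), *Ptgs2* (69.5), *Il1a* (58.0) and *Il6* (2.32 normalized CPM) were higher in another library, and *Nos2* had 0 counts. The part of that library's composition in the *Acod1* value was not tested.

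*Hcar2* (chromosome 5, 123863570 to 123865499, minus strand), the receptor of butyrate and beta-hydroxybutyrate, had 5 and 10 counts in the WT libraries and 20, 16 and 12 in the KIKO libraries. With these counts, the exact 95% Poisson interval of a single library ran from 1.62 to 11.7 counts for WT replicate 1 and from 4.8 to 18.4 for WT replicate 2. It ran from 12.2 to 30.9, from 9.15 to 26.0 and from 6.20 to 21.0 for KIKO replicates 1, 2 and 3, so that most of these intervals overlapped between the genotypes, and they cover counting error only. The levels were 4.98 and 7.58 normalized CPM in WT and 15.8, 12.4 and 12.2 in KIKO mice. All 3 KIKO libraries were above both WT libraries. The mean was 6.28 ± 1.84 (SD, n = 2) for WT and 13.4 ± 2.02 (SD, n = 3) for KIKO mice. The log2 fold change was 1.07 (standard error 0.74, 95% interval −0.61 to 2.76), which did not pass the thresholds in edgeR's test (adjusted p = 1). Without KIKO replicate 2 it was 1.12 (95% interval −0.38 to 2.63). The difference was thus of similar size with and without the library that stood apart, but at this depth its interval included 0.

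Other receptors of these ligands were near or at 0. *Hcar1*, the lactate receptor that lies beside *Hcar2* on chromosome 5, had 3 counts in WT replicate 2 and 3 in KIKO replicate 2 and 0 in the other libraries. *Ffar2*, a short-chain fatty acid receptor, had 3 counts in WT replicate 2 and 0 in the others, and *Ffar3* had 0 counts in every library, which allows a level of up to 2.28 to 3.04 normalized CPM. *Olfr78*, another receptor of short-chain acids, had 1 count in KIKO replicate 3. *Hcar2* was the only gene of the 5 in its list that could be tested. Among its signalling partners, *Gnai2*, the inhibitory G protein subunit with the highest level, had 413 and 505 normalized CPM in WT and 379, 417 and 404 in KIKO mice. *Arrb2*, a beta-arrestin, had 187 and 167 in WT and 174, 272 and 134 in KIKO mice. *Gnai1*, another inhibitory subunit, had 62.8 and 43.2 normalized CPM in WT and 30.8, 37.9 and 41.6 in KIKO mice, without overlap of the groups, and its log2 fold change was −0.53 (standard error 0.42), or −0.55 without KIKO replicate 2. *Gnai3* had 22.9 and 25 in WT and 15, 75 and 13.2 in KIKO mice, and its log2 fold change turned from 0.53 to −0.77 without KIKO replicate 2. All 5 partners were tested and 0 passed the thresholds in edgeR's test, with a median log2 fold change of 0.00, or −0.24 without KIKO replicate 2.

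**Figure D2:**
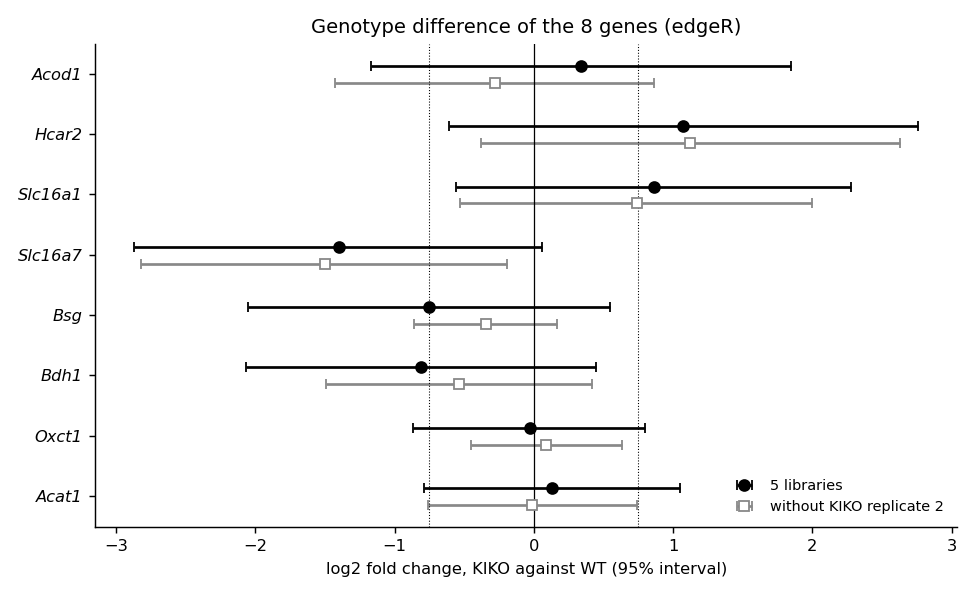
Log2 fold change of KIKO against WT (x axis) of the 8 genes with its 95% interval from edgeR, with all 5 libraries (filled circles) and without KIKO replicate 2 (open squares), and dotted lines at 0.75 in either direction. The only interval that excludes 0 is that of *Slc16a7* without KIKO replicate 2 (−2.82 to −0.19), and *Acod1* and *Bsg* move most when the library is left out.

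The carriers *Slc16a1* and *Slc16a7* separated the genotypes in opposite directions, neither past the thresholds in the fit of all 5 libraries. *Slc16a1* (chromosome 3, 104638668 to 104658462, plus strand), which encodes MCT1, had 9 and 16 counts in the WT libraries and 27, 29 and 14 in the KIKO libraries. Its levels were 8.97 and 12.1 normalized CPM in WT and 21.3, 22.4 and 14.2 in KIKO mice, with no overlap. The mean was 10.6 ± 2.24 (SD, n = 2) and 19.3 ± 4.45 (SD, n = 3), and the log2 fold change was 0.86 (standard error 0.62, 95% interval −0.56 to 2.28, adjusted p = 1). *Slc16a7* (chromosome 10, 125219270 to 125389465, minus strand) encodes MCT2, the carrier with the higher affinity that is known from neurons. It had 18 and 30 counts in the WT libraries and 8, 11 and 8 in the KIKO libraries. The levels were 17.9 and 22.8 normalized CPM in WT and 6.31, 8.50 and 8.12 in KIKO mice. The 3 KIKO libraries were close to each other and all below both WT libraries. The mean was 20.3 ± 3.41 (SD, n = 2) for WT and 7.64 ± 1.17 (SD, n = 3) for KIKO mice. The log2 fold change was −1.40 (standard error 0.64, 95% interval −2.87 to 0.06), which missed the thresholds in edgeR's test (adjusted p = 1). Without KIKO replicate 2, *Slc16a7* passed them, with a log2 fold change of −1.5 (95% interval −2.82 to −0.19, adjusted p = 0.542). In that fit 6.45% of all tested genes passed, 2.94% with higher and 3.51% with lower values, and 0.0482% had an adjusted p under 0.05. With sample quality weights in limma voom, *Slc16a7* passed as well (log2 fold change −1.49, adjusted p = 0.825), as did 4.77% of all tested genes. The log2 fold change of *Slc16a1* in the same fit was 0.74 (95% interval −0.53 to 2) without KIKO replicate 2.

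A ratio within a library does not depend on how libraries are scaled, and this one was chosen after its values were seen, so it is given without a test. *Slc16a7* had 2 and 1.88 counts for each count of *Slc16a1* in the WT libraries. The ratio was 0.296, 0.379 and 0.571 in the KIKO libraries. As a share of the counts of both genes, *Slc16a7* made up 66.7% (18 of 27, exact 95% Clopper-Pearson interval 46.0% to 83.5%) and 65.2% (30 of 46, 49.8% to 78.6%) in WT mice. In KIKO mice it made up 22.9% (8 of 35, 10.4% to 40.1%), 27.5% (11 of 40, 14.6% to 43.9%) and 36.4% (8 of 22, 17.2% to 59.3%). *Slc16a7* thus had more counts than *Slc16a1* in both WT libraries and fewer in all 3 KIKO libraries. The interval of KIKO replicate 3 reached into those of the WT libraries. The intervals cover counting error only, since reads of amplified fragments are not independent molecules.

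**Figure D3:**
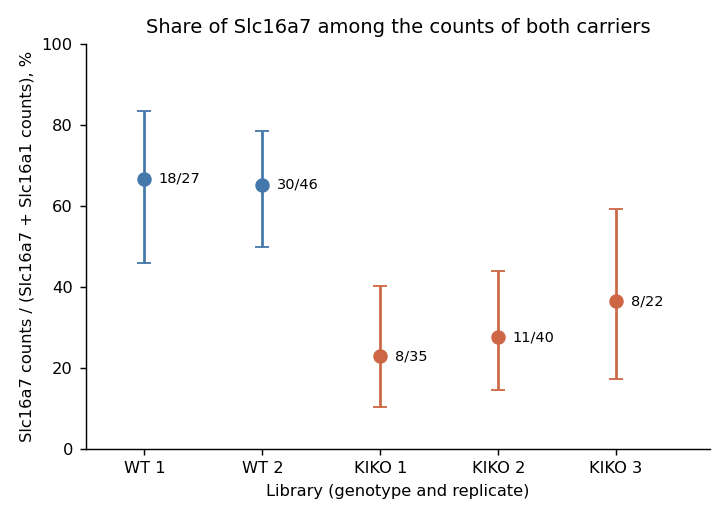
Share of *Slc16a7* counts among the counts of *Slc16a7* and *Slc16a1* together (y axis, percent) in each library, with exact 95% binomial intervals and the counts printed beside the points. The WT libraries are at 66.7% and 65.2% and the KIKO libraries between 22.9% and 36.4%.

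*Bsg* (chromosome 10, 79704491 to 79711969, plus strand), the partner protein of MCT1, had 284 and 442 counts in the WT libraries and 300, 79 and 250 in the KIKO libraries. The levels were 283 and 335 normalized CPM in WT and 237, 61.0 and 254 in KIKO mice. The groups did not overlap, but KIKO replicates 1 and 3 were close to WT replicate 1, and KIKO replicate 2 was 2.17 log2 units below the mean log2 level of the other 4 libraries. The mean was 309 ± 37.0 (SD, n = 2) and 184 ± 107 (SD, n = 3), and the log2 fold change was −0.75 (standard error 0.57, adjusted p = 1). Leaving out KIKO replicate 2 gave −0.34 (95% interval −0.86 to 0.17). The size of the difference thus rested in large part on that library. When the replicate number was fitted as a block, *Bsg* passed the thresholds with −1.34 (adjusted p = 0.989 in edgeR), as did 2.49% of all tested genes.

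Among the other carriers and partners, *Slc16a6*, a monocarboxylate carrier family member, had the highest level, with 174 and 177 normalized CPM in WT and 178, 139 and 146 in KIKO mice. *Emb* (embigin, the partner protein of MCT2) had 54.8 and 55.4 in WT and 67.0, 70.3 and 48.7 in KIKO mice. *Slc16a3*, which encodes the lactate exporter MCT4, had 11 and 13.7 in WT and 8.67, 6.18 and 3.04 in KIKO mice, without overlap and with a log2 fold change of −1.02 (standard error 0.81) that missed the thresholds (adjusted p = 1). The sodium-coupled carriers *Slc5a8* and *Slc5a12* had 0 counts in every library. Of the 9 genes of this list, 7 were tested and 0 passed the thresholds, and their median log2 fold change was −0.23, beside 0.02 over all tested genes, and −0.34 without KIKO replicate 2.

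Of the enzymes of ketone body use, *Oxct1* and *Acat1* overlapped between the genotypes, and *Bdh1* was lower in all 3 KIKO libraries, none past the thresholds. *Bdh1* (chromosome 16, 31422280 to 31458901, plus strand) had 28 and 42 counts in the WT libraries and 29, 13 and 18 in the KIKO libraries. Its levels were 27.9 and 31.9 normalized CPM in WT and 22.9, 10 and 18.3 in KIKO mice, with KIKO replicate 2 the lowest. The mean was 29.9 ± 2.80 (SD, n = 2) and 17.1 ± 6.50 (SD, n = 3), and the log2 fold change was −0.81 (standard error 0.55, 95% interval −2.07 to 0.45, adjusted p = 1). It was −0.54 (95% interval −1.49 to 0.42) without KIKO replicate 2.

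*Oxct1* (chromosome 15, 4026383 to 4155344, plus strand), the enzyme that commits acetoacetate to oxidation, had 188 and 219 counts in the WT libraries and 206, 181 and 213 in the KIKO libraries. The levels were 187 and 166 normalized CPM in WT and 162, 140 and 216 in KIKO mice. KIKO libraries lay both below and above the WT libraries. The mean was 177 ± 15 (SD, n = 2) and 173 ± 39.2 (SD, n = 3), and the log2 fold change was −0.03 (95% interval −0.87 to 0.80), or 0.01 when libraries were scaled by their size alone and 0.09 without KIKO replicate 2. *Acat1* (chromosome 9, 53580522 to 53610382, minus strand), the mitochondrial thiolase, had 42 and 61 counts in the WT libraries and 55, 73 and 44 in the KIKO libraries. The levels were 41.8 and 46.3 normalized CPM in WT and 43.4, 56.4 and 44.6 in KIKO mice, so the groups overlapped. The log2 fold change was 0.13 (95% interval −0.79 to 1.05), and −0.01 without KIKO replicate 2. *Acat1* and *Oxct1* varied least of the 8 genes over the libraries, with the highest library 1.35 and 1.55 times the lowest, compared with 5.49 times for *Bsg*. The intervals of both genes still allowed differences of more than 0.75 log2 units.

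The other genes of ketone use were scarce. *Aacs*, which activates acetoacetate in the cytosol for lipid synthesis, had 8.97 and 14.4 normalized CPM in WT and 8.67, 30.9 and 5.07 in KIKO mice, with KIKO replicate 2 the highest. *Bdh2* had 0 counts in the WT libraries and 0, 10 and 3 in the KIKO libraries, and the testis forms *Oxct2a* and *Oxct2b* had 0 counts in every library. Of the 7 genes of ketone use 4 were tested, and of the 4 genes of ketone synthesis 3 were tested. None of them passed the thresholds in edgeR's test, and the medians were 0.05 and −0.12, or −0.28 and −0.23 without KIKO replicate 2.

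Levels of different genes were compared per kilobase of exon, since longer transcripts can give more reads. On this scale *Bsg* had the highest mean over the 5 libraries (129 CPM per kilobase), followed by *Oxct1* (47.1), *Acat1* (12.4), *Acod1* (8.82), *Bdh1* (5.70), *Hcar2* (5.48), *Slc16a1* (3.57) and *Slc16a7* (1.07). Between neighbours in this order, *Oxct1* and *Acat1* were separate in range, as were *Slc16a1* and *Slc16a7*, and the ranges of the other neighbours overlapped. *Bsg* was above *Oxct1* in 4 of the 5 libraries, with KIKO replicate 2 the exception (33.7 against 37.8 CPM per kilobase). Per kilobase, *Bdh1* was above *Hcar2* in both WT libraries and below it in all 3 KIKO libraries. On the CPM scale without length, *Bdh1* was below *Hcar2* in KIKO replicate 2 alone. The study's methods name a library service whose reads may come from one end of the transcripts, in which case division by length may not apply, and the order then changes. Without it *Slc16a7* was above *Slc16a1* in both WT libraries, and *Slc16a1* was above *Hcar2* in all 5 libraries.

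The genes closest to each member in pattern were those with the highest Pearson r of log2 CPM over the 5 libraries, among 7468 tested genes with a mean of at least 20 normalized CPM and counts in every library. They were *Nsun2* (r = 0.996) and *Padi2* (0.996) for *Acod1*, and *Trp53bp1* (0.984) and *Prr5l* (0.980) for *Hcar2*. For *Slc16a1* they were *Higd2a* (0.991) and *Map4k2* (0.988), and for *Slc16a7* they were *Ifnar2* (0.993) and *Cpne3* (0.990). For *Bsg* they were *Cebpz* and *Slfn2* (0.999 or above), for *Bdh1* *Rpn1* (0.999) and *Zic5* (0.998), for *Oxct1* *2810004N23Rik* (0.993) and *Zmat3* (0.992), and for *Acat1* *Fbxw5* (0.999) and *Crispld2* (0.998). These correlations rest on 5 libraries, 1 of which stood apart, and are a description only.

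Around *Acod1*, the genes of itaconate synthesis and breakdown had counts in every library. *Sucla2* and *Suclg1*, subunits of the succinate-CoA ligase that also activates itaconate, showed log2 fold changes of 0.89 (standard error 0.51) and 0.42 (standard error 0.42), which were 0.47 and 0.11 without KIKO replicate 2. *Suclg2*, of the same list, had too few counts to be tested and was lower in KIKO mice without overlap. Its levels were 7.97 and 12.1 normalized CPM in WT and 7.89, 2.32 and 3.04 in KIKO mice. *Auh*, an enzyme of itaconate breakdown, had 33.9 and 24.3 in WT and 37.9, 60.3 and 35.5 normalized CPM in KIKO mice, with no overlap and a log2 fold change of 0.62 (standard error 0.47), or 0.34 without KIKO replicate 2. Of the 9 genes 8 were tested and 0 passed the thresholds in edgeR's test, with a median log2 fold change of 0.27, which was −0.05 without KIKO replicate 2. Among the targets of itaconate, *Sdhb*, the iron-sulfur subunit of succinate dehydrogenase, had 69.7 and 50.8 normalized CPM in WT and 76.5, 129 and 101 in KIKO mice, or 0.77 on the log2 scale as the fold change (standard error 0.40, adjusted p = 1 in edgeR). The log2 fold change was −0.38 (standard error 0.39) for *Sdha*, its flavoprotein subunit, 0.21 (standard error 0.40) for *Nfe2l2* (NRF2) and −0.30 (standard error 0.40) for *Atf3*, a stress-induced factor. These became −0.18, −0.07 and −0.58 (95% interval −1.09 to −0.07 for *Atf3*, adjusted p = 0.55) when KIKO replicate 2 was left out. The value of *Sdhb* became 0.56. Of the 7 targets 6 were tested and 0 passed, with a median of −0.23, or −0.12 without KIKO replicate 2. In that fit *Sdhc*, a membrane subunit of succinate dehydrogenase, passed with −1.62 (adjusted p = 0.209 in edgeR), at 56.8 and 75.8 normalized CPM in WT and 29.2 and 13.2 in KIKO replicates 1 and 3, while KIKO replicate 2 had 126.

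Inflammatory genes that are known to be induced together with *Acod1* were scattered in both directions. *Cxcl2*, a chemokine, had 356 and 592 normalized CPM in WT and 341, 1490 and 196 in KIKO mice. *Il1b* had 194 and 241 in WT and 173, 471 and 119 in KIKO mice. In both genes the highest and the lowest library were KIKO. *Tnf* had 88.7 and 84.2 in WT and 103, 100 and 89.3 normalized CPM in KIKO mice. *Il1a* had 65.7 and 70.5 in WT and 63.1, 58.0 and 35.5 in KIKO mice. The groups overlapped in neither gene, with *Tnf* higher and *Il1a* lower in KIKO mice. *Il6* had the largest log2 fold change of the list, −1.70 (standard error 0.99, adjusted p = 1 in edgeR), with 9.96 and 8.34 in WT and 4.73, 2.32 and 1.01 normalized CPM in KIKO mice, without overlap. *Nos2* had 0 counts in every library. Of the 7 genes 6 were tested and 0 passed the thresholds in edgeR's test. Without KIKO replicate 2, 2 of the 5 tested genes passed in the lower direction, where 3.51% of all tested genes did so, *Cxcl2* with a log2 fold change of −0.82 (95% interval −1.41 to −0.24) and *Ptgs2*, the inducible cyclooxygenase, with −1.23 (95% interval −2.11 to −0.35), and their adjusted p was 0.423 and 0.427. With all 5 libraries the log2 fold change was 0.51 for *Cxcl2*, of opposite sign, and −0.43 for *Ptgs2*. The median log2 fold change of the 5 genes tested without KIKO replicate 2 was −0.58, with 4 below 0. With all 5 libraries the median over the 6 tested genes was −0.10, with 3 above and 3 below 0.

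Genes that lead lactate, pyruvate and butyrate into oxidation also showed no member past the thresholds. *Pdk2*, a kinase that restrains pyruvate dehydrogenase, came closest, with 41.8 and 25.8 normalized CPM in WT and 78.1, 60.3 and 60.9 in KIKO mice, without overlap. Its log2 fold change was 0.98 (standard error 0.43, adjusted p = 1), and 1.05 without KIKO replicate 2, where it passed the thresholds (95% interval 0.31 to 1.80, adjusted p = 0.422). Log2 fold changes were 0.27 (standard error 0.34) for *Pdhb*, a subunit of pyruvate dehydrogenase, 0.11 for *Ldhb* and −0.10 for *Ldha*, the lactate dehydrogenase subunits. Without KIKO replicate 2 those of *Ldhb* and *Ldha* were −0.14 and −0.50. Of the 10 genes of this list 8 were tested, with a median of 0.11, or −0.06 without KIKO replicate 2. Of the 12 genes of butyrate activation and oxidation 8 were tested, with a median log2 fold change of −0.20, or 0.04 over the 7 tested without KIKO replicate 2. *Hadha*, of the trifunctional protein of fatty acid oxidation, had the highest level of that list, 62.8 and 67.5 normalized CPM in WT and 48.1, 41.7 and 69.0 in KIKO mice. *Echs1*, the short-chain enoyl-CoA hydratase, had 22.9 and 55.4 in WT and 44.2, 10.8 and 37.5 in KIKO mice. *Acsm1*, an enzyme that activates butyrate, had 0 counts in every library. Over all these pathway lists without the 8 genes, 48 of 67 genes were tested, 0 passed the thresholds, 23 were above and 25 below 0, and the groups did not overlap in 5 with higher and 4 with lower values, beside 8.2% and 8.51% of all tested genes. In the fit without KIKO replicate 2, 46 of these genes were tested and *Pdk2*, *Sdhc*, *Cxcl2* and *Ptgs2*, all described above, were those that passed, beside 6.45% of all genes tested in that fit.

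**Figure D4:**
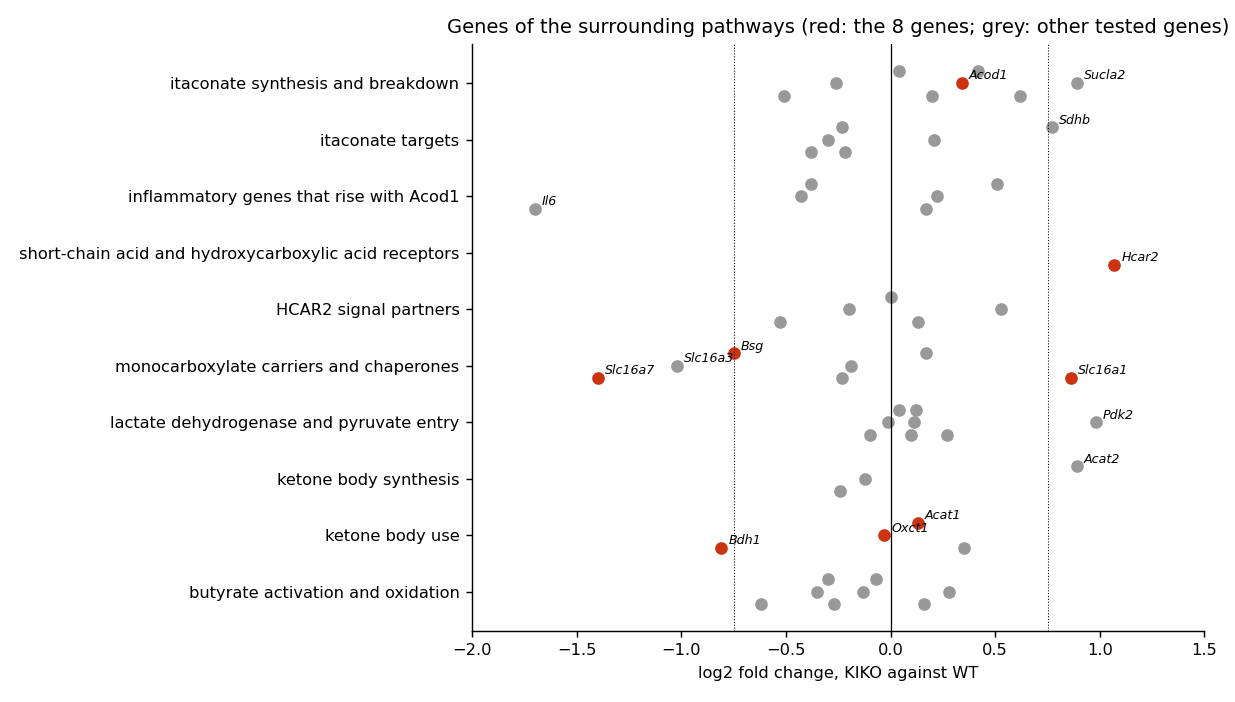
Log2 fold change of KIKO against WT (x axis) of the tested genes in each pathway list (rows), with the 8 genes in red, other genes in grey, names for those above 0.7 in size, and dotted lines at 0.75 in either direction. *Slc16a7* and *Slc16a1* lie at opposite ends of the carrier list, at −1.40 and 0.86, and none of the genes shown passed the thresholds.

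The cells behind these values were described by marker genes fixed for each cell type. Microglial transcripts were present in every library, with summed levels of 11 markers of 4843 and 6062 normalized CPM in WT and 4246, 10800 and 5015 in KIKO mice, *Csf1r* the most abundant. Markers of cells that a CD45+/CD11b+ sort should remove were present too. The 7 granule neuron markers summed to 3716 and 2404 in WT and 3383, 1914 and 3520 in KIKO mice (*Rbfox3* the most abundant), and the 6 oligodendrocyte markers to 5126 and 11780 in WT and 4506, 18820 and 5787 in KIKO mice. The 5 choroid plexus markers, with *Ttr* the most abundant, summed to 10640 and 11690 in WT and 7914, 14180 and 6627 in KIKO mice. All 4 markers of T and B cells had 0 counts in every library. The libraries thus held transcripts of many cell types of the tissue.

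Beside the 5 genes whose groups did not overlap, marker sums separated the genotypes for interneurons (4 markers, *Pvalb* the most abundant) and fibroblasts (4 markers, *Dcn* the most abundant). The interneuron sum was 128.5 and 121.4 normalized CPM in WT and 231.1, 214.8 and 210.1 in KIKO mice. The fibroblast sum was 69.73 and 61.44 in WT and 70.98, 99.68 and 74.08 in KIKO mice, and its markers went in different directions. *Dcn* overlapped between the genotypes (log2 fold change −0.15) and *Lum*, too scarce to be tested, was lower in all 3 KIKO libraries. *Col1a1* and *Col1a2* were higher in all 3. Among single genes, 16.7% of those tested separated the genotypes. Neutrophil and monocyte markers, which bear on *Hcar2* because neutrophils express it as well, summed to 16.93 and 34.89 in WT and 103.3, 32.45 and 46.68 in KIKO mice. The most abundant of these 7 markers was *S100a9*, *Ly6c2* had 0 counts in every library, and 2 of the 7 could be tested, at log2 fold changes of 1.08 (*S100a8*) and 1.80 (*S100a9*), or 1.07 and 2.25 without KIKO replicate 2. Endothelial markers, which bear on *Slc16a1* and *Bsg*, summed to 407.4 and 863.9 in WT and 465.3, 843.1 and 530.7 in KIKO mice, with overlap of the groups and *Flt1* the most abundant. Purkinje neuron markers summed to 386.5 and 266.2 in WT and 593.1, 295.2 and 525.6 in KIKO mice, with *Itpr1* the most abundant. Of the markers of all cell types, *Gfap* of astrocytes alone passed the thresholds in edgeR's test, with 19.9 and 9.86 normalized CPM in WT and 30.0, 44.8 and 36.5 in KIKO mice (log2 fold change 1.33, standard error 0.55, adjusted p = 1). In the fit without KIKO replicate 2, markers past the thresholds were *S100a9*, *Calb1* and *Car8* (Purkinje neurons), *Gad1* and *Pvalb* (interneurons), *Gfap* and *Vcan* (oligodendrocyte precursors) with higher, and *Itgam* (microglia), *Mbp* and *Mog* (oligodendrocytes), *Kl*, *Folr1* and *Clic6* (choroid plexus) with lower values. These moved in the same fit in which *Slc16a7* passed. The part of the cell mixture in the values of the 8 genes was not tested.

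**Figure D5:**
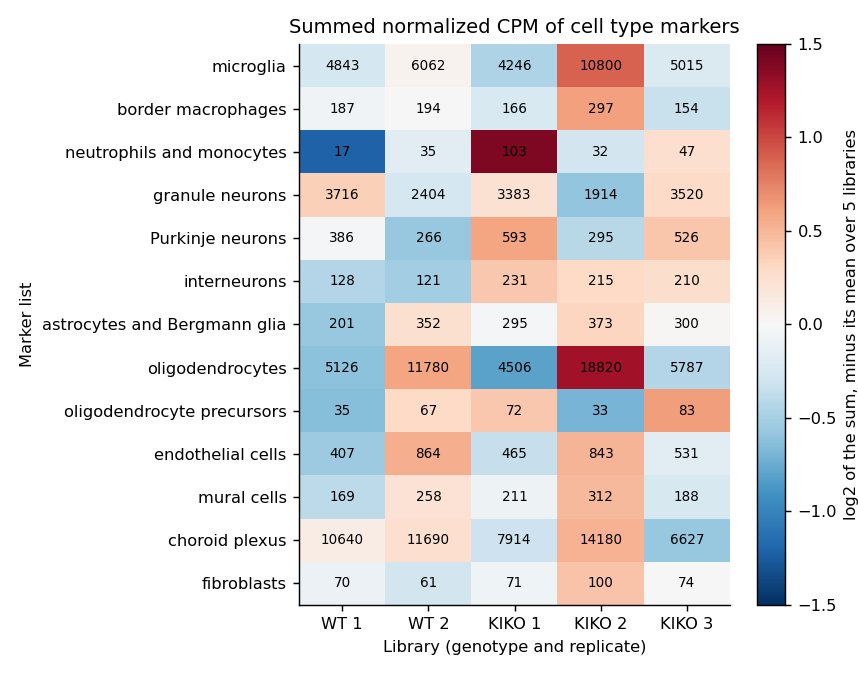
Summed normalized CPM of the markers of each cell type (rows, numbers in the cells) in each library (columns), coloured by the log2 of the sum minus its mean over the 5 libraries. KIKO replicate 2 has the highest sums of microglial (10800) and oligodendrocyte (18820) markers and the lowest of granule neuron markers (1914).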

How the data were processed

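Bulk RNA sequencing of 2 WT and 3 KIKO cerebellar samples was analysed. Read trimming by the authors used Trimmomatic, alignment to mm10 used HISAT2, and featureCounts gave the counts. The gene annotation, the strand setting and the treatment of multi-mapped reads are not given in the sources used here. The authors deposited raw counts and also log2 values, which equal log2(count / DESeq2 size factor + 1) (the count was returned within 0.01 for 100% of values). The labels name a lipid tissue extraction kit and a stranded library kit, whereas the study's methods name another extraction kit and a digital mRNA sequencing service. Columns were matched to samples by name, and 2 further columns of per-sample values in each table were not used. The design assumed 3 WT samples where a column existed for 2.

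Names were taken from GENCODE M21 (GRCm38, mm10) and found for 30934 of 31053 identifiers (99.6%). The analysis used edgeR 4.0.16 under R 4.3.3. A gene was tested if it passed filterByExpr (minimum count 10, minimum total 15), libraries were scaled by TMM (factors 0.9712 to 1.057), and KIKO was compared with WT by the quasi-likelihood test, two-sided, with Benjamini-Hochberg adjustment over 10889 genes. The standard error is the log2 fold change divided by the square root of the F statistic. The total counts per library were between 1013107 and 1351339. The common biological coefficient of variation was 0.468, and 0.238 without KIKO replicate 2. The size of the estimated fold changes was checked on simulated counts with known fold changes. The simulation gave every gene the common biological coefficient of variation and set no library apart, so it does not measure the error rate of the test in these data. Alternatives were DESeq2 1.42.0, limma 3.58.1 (trend on the deposited log2 values, and voom with sample quality weights), other scaling factors and filters, the replicate number as a block, and leaving out each library.

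Members and gene lists were chosen with earlier results of these data known. Named genes are the 8 members, list members past the thresholds and up to 4 of the most abundant per list, the most abundant marker of each cell type, and the 2 genes closest in pattern to each member. Genes named beyond these, such as those at or near 0, *Slc16a3*, *Il6*, *Gnai3*, *Ldha*, *S100a8*, and *Sdhc* and *Ptgs2* in the fit without KIKO replicate 2, were chosen after their values were seen. Some genes that this rule names are not reported here.

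Exons of *Slc16a7*, *Bdh1* and *Oxct1* overlap those of *Gm47862*, *Gm15743* and *BC037032* on the opposite strand, so their reads could be assigned differently if strand was ignored. *Gm15743* had 1 count in KIKO replicate 3 and 0 elsewhere, and no row of the counts used carries *Gm47862* or *BC037032*, which were not analysed here. Of the 50-base words in the transcripts of each member, 11.1% of *Bdh1*, 11.2% of *Oxct1* and 1.35% of *Slc16a7* occurred in transcripts of another gene, and 0% in the other 5 members.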

Additional observations from a re-analysis of the deposited data

How the results depend on the processing

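Of 101 alternative values of the log2 fold changes of the 8 genes, 89 kept the direction and the side of the thresholds. *Hcar2* (0.81 to 1.4), *Slc16a1* (0.66 to 1.08) and *Bdh1* (−1.08 to −0.54) did so in every alternative run, and *Hcar2*, *Slc16a1* and *Slc16a7* were not tested where 10 counts were required in every library. *Slc16a7* passed the thresholds with quality weights (−1.49), and ranged from −1.57 to −1.24 with each library left out, passing without KIKO replicate 2 alone. *Acod1* was −0.27 with quality weights and ranged from −0.28 to 0.72 with each library left out, negative without KIKO replicate 2 and 0 without WT replicate 2. *Oxct1* was 0.01 with library size alone and 0.05 with quality weights, and ranged from −0.22 to 0.09, and *Acat1* ranged from −0.01 to 0.20. The replicate number, which the labels give without saying that it pairs mice, left 1 residual degree of freedom as a block: *Bsg* then passed the thresholds (−1.34, adjusted p = 0.989 in edgeR, where 2.49% of all genes passed) and no other member did. Deviations of same-numbered libraries correlated with r = 0.17 and 0.225, and those of WT replicate 1 and KIKO replicate 3 with 0.205. The deviations of the 2 WT libraries from their mean mirror each other, so the r values of WT replicate 2 are those of WT replicate 1 with the sign reversed. These correlations therefore cannot decide whether the replicate number pairs mice. The number of genes past the thresholds, 131 (78 higher, 53 lower), was 137 with library size alone (94 and 43), 136 in DESeq2 (96 and 40), 271 with the replicate block (109 and 162), 383 with all genes of at least 1 count (256 and 127) and 519 with quality weights (203 and 316), and ranged from 56 to 669 with each library left out, the lowest without WT replicate 1 (41 and 15) and the highest without KIKO replicate 2 (305 and 364). Where 1 WT library was left, it was assumed to vary like the KIKO libraries. What caused the changes was not tested. Counts of at most 30 per library in *Hcar2*, *Slc16a1* and *Slc16a7* limit what could be detected.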
